A study of Mus musculus and Homo sapiens with 27 samples.

Results

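Ints7, Trim27, Trim65, Adck1 and Med9 are 5 genes whose levels lay far lower in Irf4-null than in Irf4-heterozygous mouse B cells after 96 h of culture with lipopolysaccharide (LPS). They were chosen by name for that late difference, which is therefore described here and not tested. All 5 had a feature on the mouse array, 1 feature each, out of 331 genes whose features carried a single symbol. They were measured on the mouse lymphochip, on which cDNA clones from lymphoid cells are spotted. The B cells came from the spleens of adult Balb-c mice that were heterozygous for an Irf4 null allele (Het) or homozygous for it (KO), so no group held wild-type cells. Groups were unstimulated cells (0 h, 3 Het and 3 KO arrays) and cells given LPS for 24 h (2 Het, 3 KO), 48 h (2 Het, 3 KO) or 96 h (4 Het, 3 KO). The labels give the LPS dose as 20 to 25 mg/ml. RNA of the B cells was labelled with Cy5 and hybridised against a common Cy3 pool of RNA from B-cell, T-cell and macrophage lines, plasmacytomas among them. Each value below is a log2 ratio of B cells over that pool after centring the array on its median, so values of different genes are not levels on a shared scale. A second set of 4 human arrays compared OCI-Ly7, a diffuse large B-cell lymphoma line, carrying an IRF4 vector with the same line carrying an empty vector, after 2 days (1 array), 3 days (2 arrays) or 5 days (1 array).

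Irf4 is a transcription factor that activated B cells need to become antibody-secreting plasma cells. Ints7 is a subunit of Integrator, a complex that binds RNA polymerase II and cleaves nascent transcripts such as those of small nuclear RNAs. Med9 is a subunit of Mediator, the complex that links transcription factors to RNA polymerase II. Trim27 and Trim65 belong to the tripartite motif family, whose members carry a RING domain and act as ubiquitin ligases. Adck1 belongs to the UbiB family of atypical kinases, which work in mitochondria.

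RefSeq promoter windows of build GRCm38.p6 were at hand for 4 of the 5 genes, Ints7, Trim27, Adck1 and Med9. The 250 bases before the annotated start are shown for the 3 of them that followed each other most closely across the arrays, because genes that vary together across samples differing in Irf4 invite a look for its binding letters. Both strands were searched for the composite element that Irf4 shares with Ets factors, GGAA followed by any 2 bases and GAAA, and for an interferon-stimulated response element, GAAA followed by any 2 bases and GAAA. The patterns end in the same letters but cannot both start at the same base. A match is printed in capitals.
Ints7 (chr1:191575386-191575635, plus strand): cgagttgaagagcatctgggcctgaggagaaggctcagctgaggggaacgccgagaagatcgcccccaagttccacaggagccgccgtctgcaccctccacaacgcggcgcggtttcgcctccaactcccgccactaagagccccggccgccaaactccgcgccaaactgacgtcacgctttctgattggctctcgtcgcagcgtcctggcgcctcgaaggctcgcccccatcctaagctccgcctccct
Trim27 (chr13:21179681-21179930, plus strand): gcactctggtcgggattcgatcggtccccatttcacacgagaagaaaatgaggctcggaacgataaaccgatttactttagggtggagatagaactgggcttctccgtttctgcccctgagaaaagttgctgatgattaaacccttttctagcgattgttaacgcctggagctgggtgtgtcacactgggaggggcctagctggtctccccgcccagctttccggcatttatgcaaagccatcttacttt
Adck1 (chr12:88360264-88360513, plus strand): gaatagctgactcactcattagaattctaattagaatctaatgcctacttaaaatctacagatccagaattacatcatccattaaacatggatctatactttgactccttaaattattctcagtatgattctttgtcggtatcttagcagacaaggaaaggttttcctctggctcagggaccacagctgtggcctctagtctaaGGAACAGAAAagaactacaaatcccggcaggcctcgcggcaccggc
The Adck1 window held 1 match to the composite pattern, which begins 46 bases before the start, and none of the other windows of these genes, a second one of Adck1 and that of Med9 included, held either pattern. Of 32851 such mouse windows, 2.30% held the composite pattern and 2.98% the response element. A match shows only that the letters are present.

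The deposited values of the 23 mouse arrays had no gaps, and their standard deviation over features ran from 0.98 to 3.10. The titles carry a number of the authors' database that falls into 3 ranges of 5, 5 and 13 arrays, and the 3 widest spreads, at 2.81, 3.01 and 3.10, were those of Het arrays in the lowest range, whose 2 KO arrays stood at 1.35 and 1.60. The labels of 3 arrays conflict (replicate 3 of KO at 24 h, replicates 1 and 3 of KO at 48 h), with KO in the title and Het in the fields of the channel. The titles were followed, and values without these arrays are given where they matter. Irf4 was not among the named mouse genes, so the genotype was not checked on its own transcript. Of the mature B-cell markers 4 of 12 were measured (Bank1, Cd79b, Ets1 and Id3), and their mean lay above the pool on every array, at 1.15 to 3.62. Replicates are called biological in the design text, and whether each came from its own animal is not given in the sources used here.

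Ints7, the Integrator subunit, lay above the pool on all 23 arrays. At 0 h it stood at 2.97, 3.04 and 2.18 on the Het arrays and at 2.76, 1.61 and 1.33 on the KO arrays. At 24 h the Het arrays gave 2.51 and 1.35, the KO arrays 2.22, 0.79 and 0.79. The genotypes overlapped at both times. At 48 h Ints7 was at 2.54 and 1.44 in Het and at 1.44, 0.99 and 1.17 in KO, with the highest KO array just under the lower Het array. At 96 h the Het arrays stood at 3.67, 4.13, 4.37 and 4.66, and the KO arrays at 0.86, 0.99 and 0.90. The late Het arrays were thus the highest of all 23 and the late KO arrays lay within a span of 0.13, while the mean of Het at 96 h (4.21 ± 0.42, SD, n = 4) was 2.21 above that at 48 h, or 4.64-fold. In order of group means, Het at 96 h stood clear of Het at 0 h (2.73 ± 0.48), every neighbour from there down to KO at 48 h overlapped, and KO at 96 h (0.92 ± 0.06, n = 3) was last and stood clear of KO at 48 h (1.20 ± 0.22).

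Med9, the Mediator subunit, differed from the other genes in lying near the pool. Its Het arrays gave 0.28, -0.77 and -1.09 at 0 h, 0.40 and 0.01 at 24 h, and 0.65 and 0.02 at 48 h. Its KO arrays gave 0.35, -0.61 and -0.33 at 0 h, -1.03, -0.01 and -0.39 at 24 h, and 0.22, -0.11 and -0.15 at 48 h. The genotypes overlapped at 0 and 48 h, and at 24 h the highest KO array lay just under the lowest Het array. At 96 h Het was at -0.03, 0.98, 0.87 and 1.27, and KO at -0.49, -0.89 and -0.81. All 4 Het arrays lay above all 3 KO arrays at that time, yet every pair of neighbours in the order of the 8 group means overlapped, from Het at 96 h (0.77 ± 0.56) down to KO at 96 h (-0.73 ± 0.21).

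Trim27, a RING-domain ubiquitin ligase, gave 4.12, 3.97 and 2.30 in Het at 0 h and 3.27, 2.75 and 1.90 in KO. At 24 h the Het arrays stood at 4.24 and 2.22. The KO arrays of that time were at -0.93, 1.98 and 1.70, and replicate 1 was the only array of the 23 with Trim27 below the pool. At 48 h Trim27 was at 3.22 and 2.90 in Het and at 2.54, 2.37 and 2.48 in KO. At 96 h it reached 5.17, 5.01, 5.74 and 5.73 in Het, against 1.88, 1.80 and 1.84 in KO. The genotypes overlapped at 0 h and no longer from 24 h on. The late Het mean (5.41 ± 0.38) was 2.35 above that at 48 h, or 5.11-fold, and stood clear of Het at 0 h (3.46 ± 1.01), the next group. KO at 48 h (2.46 ± 0.09) stood clear of KO at 96 h (1.84 ± 0.04), and KO at 24 h came last. Its replicate 1 lay far below the late KO arrays, and its replicates 2 and 3 lay on either side of them.

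Trim65, the other member of the tripartite motif family, gave 3.05, 3.09 and 1.55 in Het at 0 h and 2.71, 1.95 and 1.26 in KO. At 24 h it stood at 2.57 and 1.63 in Het and at 2.37, 1.11 and 0.62 in KO. The genotypes overlapped at both times. At 48 h the Het arrays gave 2.61 and 1.83 and the KO arrays 1.62, 0.94 and 1.09. At 96 h Trim65 was at 3.96, 4.42, 3.73 and 3.69 in Het and at 0.71, 0.73 and 0.70 in KO. The 3 late KO arrays agreed to within 0.04, and the late Het mean (3.95 ± 0.34) was 3.31-fold above the Het mean at 48 h. Het at 96 h and KO at 96 h (0.71 ± 0.02) each stood clear of their neighbour in the order of group means, Het at 0 h (2.56 ± 0.88) and KO at 48 h (1.22 ± 0.36), and all groups between overlapped with their neighbours.

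Adck1, the UbiB-family kinase, stood at 3.10, 2.95 and 1.65 in Het at 0 h and at 2.53, 1.74 and 1.37 in KO. At 24 h the Het arrays gave 2.73 and 1.49 and the KO arrays -2.01, 1.02 and 0.76. As for Trim27, replicate 1 of KO at 24 h was the only array below the pool. At 48 h Adck1 was at 2.73 and 1.98 in Het and at 1.84, 1.13 and 1.25 in KO. At 96 h Het reached 3.72, 4.23, 4.10 and 4.38 while KO stood at 0.94, 0.91 and 0.84. The genotypes overlapped at 0 h and no longer at 24, 48 and 96 h, and the late Het mean (4.11 ± 0.28) was 3.36-fold above that at 48 h. Het at 96 h stood clear of Het at 0 h (2.57 ± 0.80) and KO at 48 h (1.41 ± 0.38) of KO at 96 h (0.89 ± 0.05). KO at 24 h again came last, with replicate 1 far below the late KO arrays and replicates 2 and 3 on either side of them.

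**Figure D1:**
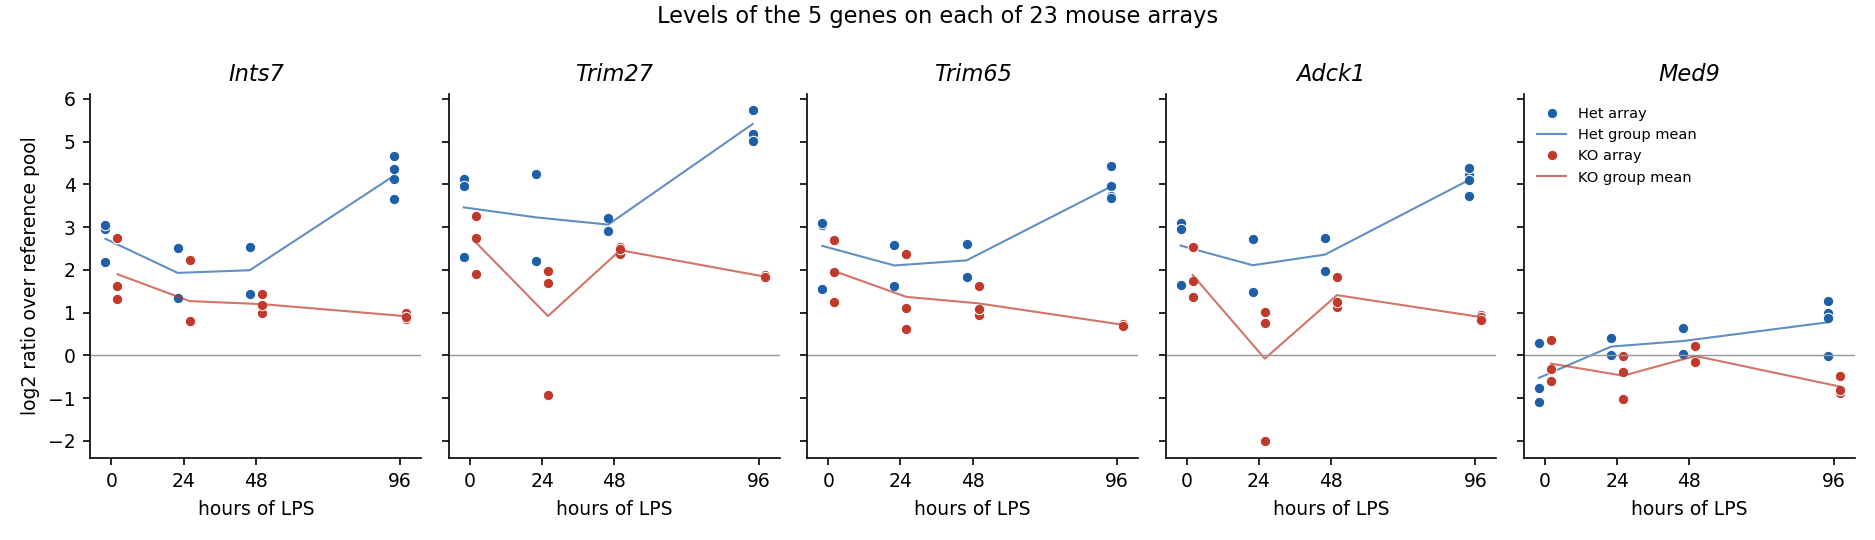
Log2 ratio over the reference pool (y) against hours of LPS (x) for each gene, with 1 point per array, Het in blue and KO in red, shifted sideways for legibility, and lines through the group means. For Ints7, Trim27, Trim65 and Adck1 the 4 Het arrays at 96 h are the highest of all, the 3 KO arrays at 96 h lie close together, and 1 KO array at 24 h is low for Trim27 and Adck1 only.

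The late difference, by which the genes were chosen, was of like size in the 4 genes above the pool. KO minus Het at 96 h was -3.29 log2 units for Ints7 (9.78-fold), -3.57 for Trim27 (11.9-fold), -3.23 for Trim65 (9.41-fold) and -3.21 for Adck1 (9.28-fold). For Med9 it was -1.50 (2.84-fold). At that time 5 of 5 genes had every KO array below every Het array, as did 12.7% of all genes. As a background, 2.72% of all genes (9 of 331) passed limma at an adjusted p under 0.05. Nothing is read from these counts, since the choice used this contrast. The Med9 difference, at -1.50 ± 0.39 (SE), was the smallest of the 5, and that of Dnajc3, a chaperone of the endoplasmic reticulum, was -1.07 ± 0.29.

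The late gap held a higher Het level and a slightly lower KO level than at 48 h. From 48 to 96 h the Het mean was higher at the end by 2.21 for Ints7, 2.35 for Trim27, 1.73 for Trim65, 1.75 for Adck1 and 0.44 for Med9, against a median of -0.51 over all 331 genes. Over the same interval the KO mean was lower at the end by amounts that run from -0.28 for Ints7 to -0.72 for Med9, with a median of -0.52 for the 5 genes and of -0.64 for all genes. These differences use the 96 h arrays on which the genes were chosen, so nothing is read from them. In KO the mean at 96 h was below that at 0 h for all 5 genes, with differences of -0.54 for Med9, -0.98 for Ints7, -0.80 for Trim27, -1.26 for Trim65 and -0.99 for Adck1. No value over all genes stands beside these, which also use the late arrays, so nothing is read from them either.

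The arrays at 0, 24 and 48 h took no part in the choice, and the genotypes were tested on them with limma, with p-values adjusted over all 331 genes. No gene of the 5 passed at any of these times, and none of the 331 did. At 0 h, before LPS, KO minus Het was -0.83 ± 0.54 (SE) for Ints7 (adjusted p = 0.563), -0.82 ± 0.78 for Trim27, -0.59 ± 0.58 for Trim65, -0.69 ± 0.73 for Adck1 and 0.33 ± 0.44 for Med9. Of all genes 0% passed and 40 had an unadjusted p under 0.05, none of the 5 among them. No KO array set lay wholly below the Het arrays at 0 h for any of the 5, against 3.63% of all genes. The median difference was -0.69 for the 5 genes and -0.10 for all genes. The direction of Trim27, Trim65 and Adck1 at 0 h turned above 0, to at most 0.11, with arrays scaled to equal spread, and that of Trim27 and Trim65 also without the lowest database range. With single arrays left out, the 0 h difference ran from -1.26 to -0.54 for Ints7, from -1.10 to -0.24 for Trim65 and from 0.05 to 0.74 for Med9.

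At 24 h all 5 differences were below 0, with a median of -0.74 against -0.49 over all genes, of which 74.9% were below 0. Trim27 differed by -2.31 ± 0.87 (SE, 95% interval -4.19 to -0.43) and Adck1 by -2.19 ± 0.82 (-3.96 to -0.42). Each had an unadjusted p of 0.02 (0.0198 and 0.0194) and an adjusted p of 0.576, so neither passed. Again 0% of all genes passed, and 11 had an unadjusted p under 0.05. Without KO replicate 1 the differences were -1.39 for Trim27 and -1.22 for Adck1, next to -1.14 for Ints7 and -1.24 for Trim65, all with an adjusted p of 0.875. With that array Ints7 differed by -0.66 ± 0.61, Trim65 by -0.74 ± 0.65 and Med9 by -0.68 ± 0.49. Of the 2 Het arrays, leaving out replicate 1 gave -0.08 for Ints7, -0.27 for Trim65 and -1.30 for Trim27, and leaving out replicate 2 gave -1.24, -1.21 and -3.32. For 3 of the 5 genes (Trim27, Adck1 and Med9) every KO array lay below both Het arrays, as for 19.3% of all genes. Without KO replicate 3, whose labels conflict, the differences were -2.70 for Trim27, -2.61 for Adck1, -0.72 for Med9, -0.42 for Ints7 and -0.36 for Trim65.

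At 48 h the spread within KO was smaller and the differences were closer together. KO minus Het was -0.79 ± 0.61 for Ints7, -0.60 ± 0.87 for Trim27, -1.01 ± 0.65 for Trim65, -0.95 ± 0.82 for Adck1 and -0.35 ± 0.49 for Med9, each with an adjusted p of 0.997. Without Het replicate 1 the differences were -0.24 for Ints7, -0.62 for Trim65, -0.57 for Adck1 and -0.04 for Med9, and without Het replicate 2 they were -1.34, -1.40, -1.33 and -0.66. The median of the 5 was -0.79 and that of all genes -0.08. None of the 331 genes passed (0%), and 3 had an unadjusted p under 0.05. For 4 of the 5 genes every KO array lay below both Het arrays, as for 22.1% of all genes, and Med9 was the exception. The single KO array whose labels do not conflict, replicate 2, lay below both Het arrays for all 5 genes and gave differences of -0.997 for Ints7, -0.69 for Trim27, -1.29 for Trim65, -1.22 for Adck1 and -0.44 for Med9.

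Averaged over 24 and 48 h, all 5 genes were lower in KO, with a median of -0.87 against -0.24 over all genes, of which 72.2% were below 0, and none passed. Adck1 differed by -1.57 ± 0.58 (unadjusted p = 0.0181) and Trim27 by -1.45 ± 0.61 (unadjusted p = 0.0342), with an adjusted p of 0.774 for each. Without KO 24 h replicate 1 they came to -1.08 and -0.99, beside -0.97 for Ints7 and -1.12 for Trim65. Without Het 24 h replicate 1 the value was -0.95 for Trim27 and -0.44 for Ints7, which was at -0.45 without Het 48 h replicate 1. Here too 0% of all genes passed, and 9 had an unadjusted p under 0.05.

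**Figure D2:**
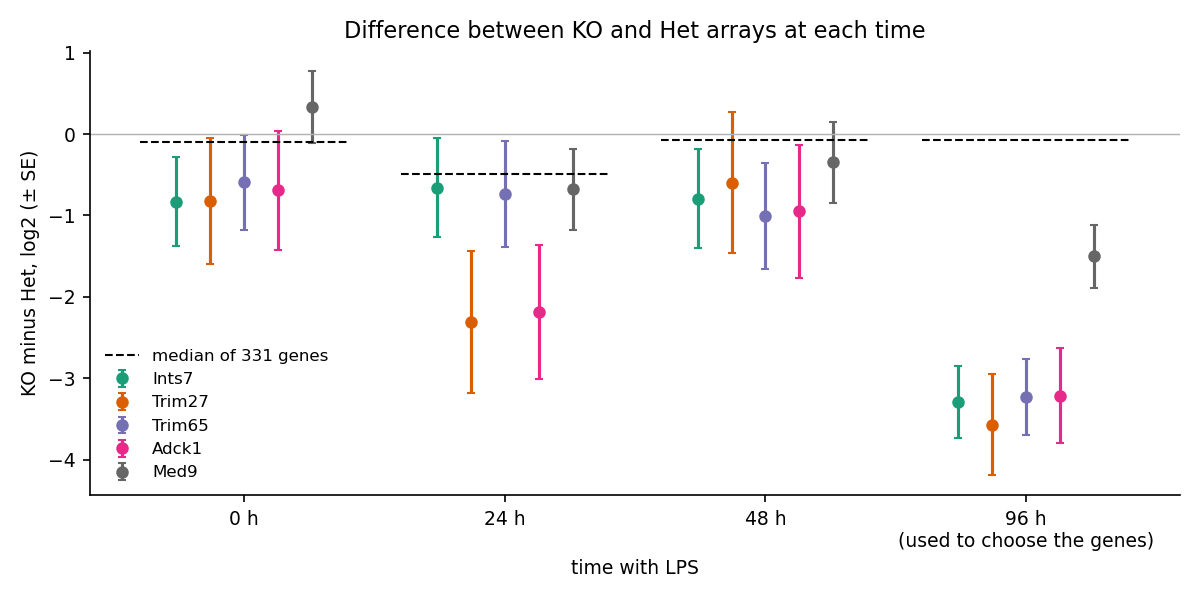
KO minus Het on the log2 scale (y) at each time (x) for the 5 genes, with bars of 1 standard error from limma and a dashed line at the median of all 331 genes. The 4 genes other than Med9 lie below 0 at every time and between -3.57 and -3.21 at 96 h, the time used to choose them; the estimates of Trim27 and Adck1 at 24 h are -2.31 and -2.19.

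Genotypes were also compared inside each range that held both at 0, 24 or 48 h, a description added after the values were seen. There were 6 such combinations of range and time, with 1 or 2 arrays on a side. Array spread still differed between genotypes inside a range, at 2.81 to 3.10 in Het against 1.35 and 1.60 in KO in the lowest range, and at 1.63 in Het against 2.38 in KO at 48 h in the middle range. Ints7 was lower in KO in 6 of 6, by -1.11 to -0.25, Trim65 in 6 of 6, by -0.99 to -0.20, and Trim27 and Adck1 in 6 of 6 as well. For Trim27 the 6 differences ran from -5.17 to -0.24 and for Adck1 from -4.74 to -0.28, the lowest of each at 24 h in the range that holds KO replicate 1. Med9 was lower in 4 of 6, with 0.60 and 0.77 at 0 h. Of all genes 3.32% were lower in KO in all 6, and 4 of the 5 genes were among them.

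The early response to LPS, the mean of 24 and 48 h minus 0 h, was not called for any of the 5 genes in either genotype. In Het it was -0.77 ± 0.51 for Ints7, -0.32 ± 0.73 for Trim27, -0.40 ± 0.55 for Trim65, -0.34 ± 0.68 for Adck1 and 0.80 ± 0.41 for Med9 (adjusted p = 0.227), while 9.67% of all genes passed. The Med9 value was 1.27 with an adjusted p of 0.0335 when the 5 arrays of the lowest database range were left out, the single call of a tested difference among the alternatives run, while that setting turned Trim27, Trim65 and Adck1 above 0. In KO the response was -0.66 ± 0.47 for Ints7, -0.95 ± 0.67 for Trim27, -0.68 ± 0.51 for Trim65, -1.22 ± 0.63 for Adck1 and -0.05 ± 0.38 for Med9, and 0.302% of all genes passed. The difference between the responses, KO minus Het, was 0.10 ± 0.69 for Ints7, -0.63 ± 0.99 for Trim27, -0.28 ± 0.74 for Trim65, -0.88 ± 0.93 for Adck1 and -0.85 ± 0.56 for Med9. None passed, 0% of all genes did, and 20 of all genes had an unadjusted p under 0.05. The 95% interval for Ints7, -1.40 to 1.60, still holds differences of over 1 log2 unit either way.

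The profiles of Ints7, Trim27, Trim65 and Adck1 ran close together over the arrays, apart from 1 array. Correlations here describe 23 arrays that share the reference pool and the group means, and carry no test. These arrays include those at 96 h, on which the genes were chosen for a late gap. A high r among the genes, or a high rank among all pairs, is therefore partly built in, also on the 22 arrays below. Over the 23 arrays Trim27 and Adck1 had a Pearson r of 0.98, rank 9 among 54615 pairs of genes, and Ints7 and Trim65 an r of 0.96, rank 91. The other 4 pairs lay at 0.75 to 0.79, for a median of 0.78 over the 6 pairs (Spearman 0.89), against 0.12 for all pairs of genes. The array that parted the 2 pairs was KO 24 h replicate 1. Relative to the mean of the other KO arrays of that time, Ints7 there was 1.44 higher and Trim65 1.50 higher, while Trim27 differed by -2.77 and Adck1 by -2.90. Of all 331 genes 14.8% lay over 2 log2 units from the other 2 arrays on it. On the 22 arrays without it, a set chosen after its values were seen, all 6 pairs had an r of 0.95 to 0.98, with a median of 0.97.

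Likeness was also described by level differences. The SD over the 22 arrays of the difference between 2 genes was 0.22 for Trim65 and Adck1 and 0.23 for Ints7 and Adck1. The median pair of genes had 1.26, and the 4 genes themselves had SDs of 1.18 to 1.33. The widest of the 6 was 0.43, for Trim27 and Trim65. With KO 24 h replicate 1 kept, the SD was 0.96 for Trim65 and Adck1 and 0.92 for Ints7 and Adck1, against 1.29 for the median pair. Both sets hold the 96 h arrays on which the genes were chosen, so nothing is read from these SDs. On the 16 arrays at 0 to 48 h, which leave out the late contrast, the median r of the 6 pairs was 0.45, and 0.94 without KO 24 h replicate 1, against 0.13 over all pairs of genes in both cases. Within groups, the deviations from the group means had a median r of 0.12, where all pairs of genes had 0.17, and of 0.85 without that array, where all pairs had 0.18. Med9 followed them less closely over the 23 arrays, at 0.63 to 0.75 with a median of 0.69, and its median was 0.36 on the 16 early arrays. Its deviations from the group means had a median r of 0.51 with the 4 genes, above their 0.12. After quantile normalization both medians over the 23 arrays were 0.73. With arrays scaled to equal spread they were 0.69 for the 4 genes and 0.68 for Med9. Array spread also differed within groups, and its part in the r values was not tested. Without KO 24 h replicate 1 the Med9 median was 0.70 on the 22 arrays and 0.66 for deviations, below the 4 genes in both.

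**Figure D3:**
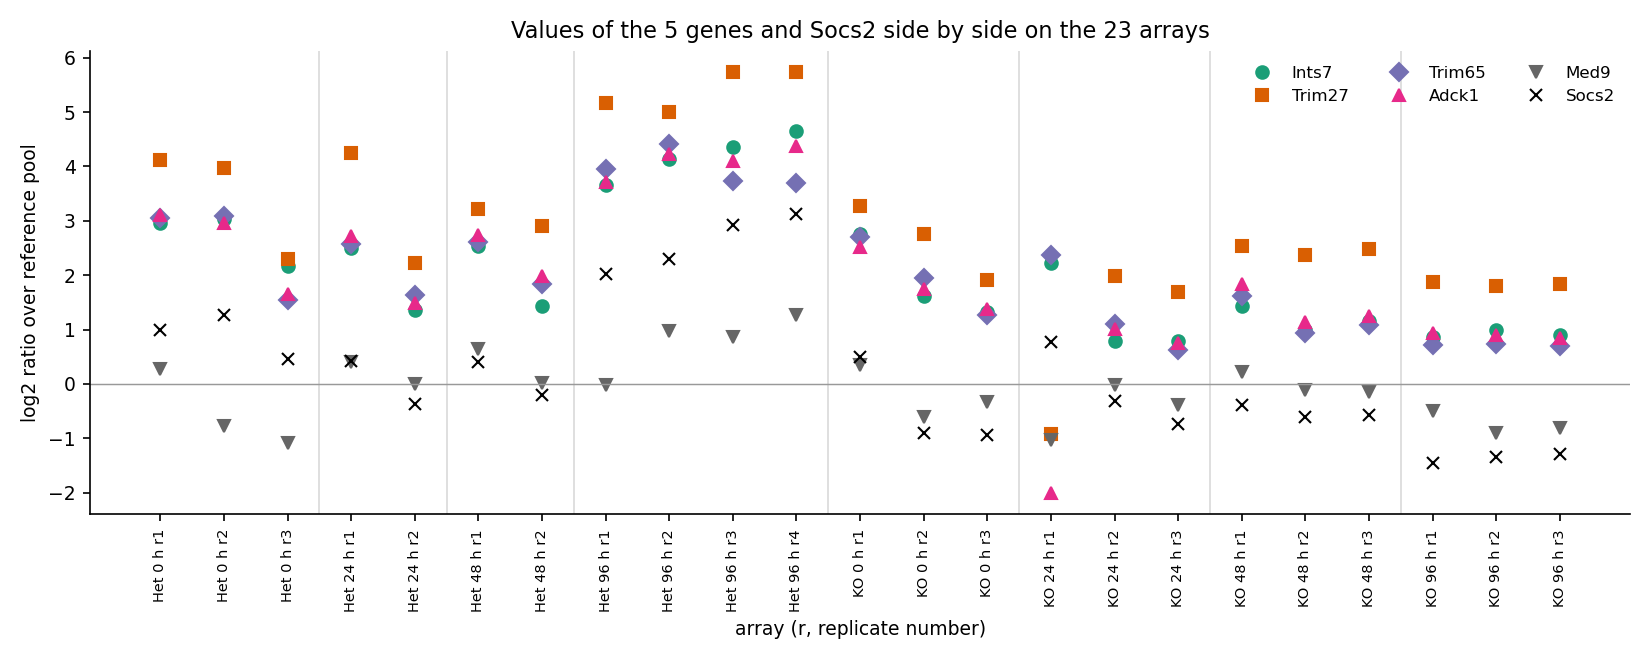
Log2 ratio over the pool (y) of the 5 genes and Socs2 on each of the 23 arrays (x, by group and replicate number), with vertical lines between groups. Ints7, Trim65 and Adck1 nearly coincide on most arrays with Trim27 running parallel above them, and on KO 24 h replicate 1 Trim27 and Adck1 sit at -0.93 and -2.01 while Ints7 and Trim65 sit at 2.22 and 2.37.

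**Figure D4:**
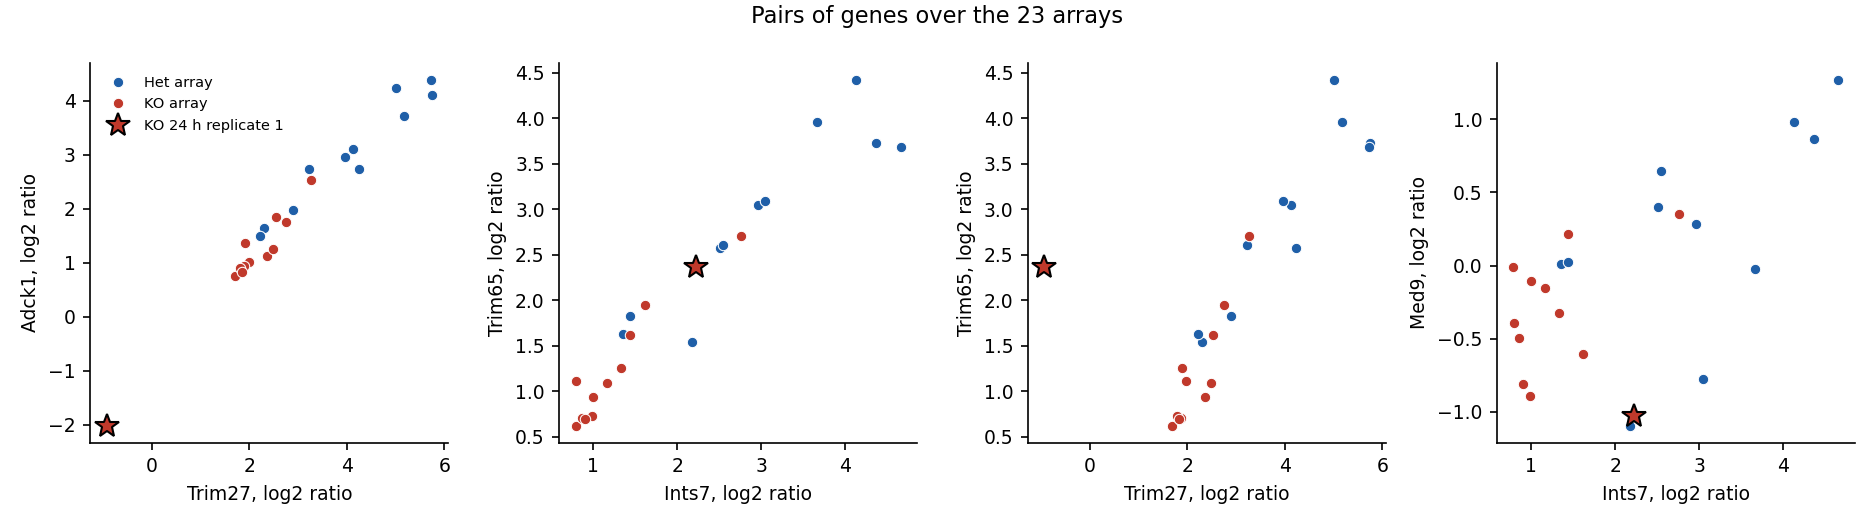
Log2 ratios of 1 gene against another over the 23 arrays for 4 pairs, Het in blue, KO in red and KO 24 h replicate 1 as a star. The star continues the line of points for Trim27 and Adck1 (r = 0.98) and for Ints7 and Trim65 (r = 0.96), lies far off it for Trim27 and Trim65 (r = 0.76), and Ints7 with Med9 scatters more widely (r = 0.63).

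The named genes nearest to the mean profile of the 5, by Pearson r over 23 arrays, were Socs2 (0.88), Dnajc3 (0.78), Jchain (0.76), Sel1l (0.73) and Iglv1 (0.71). These values include the 96 h arrays on which the 5 genes were chosen. On the 16 arrays at 0 to 48 h the r was 0.61 for Dnajc3, 0.52 for Sel1l and Socs2, 0.48 for Jchain and 0.28 for Iglv1, so the order differed. On the 22 arrays without KO 24 h replicate 1 it was 0.95 for Socs2, 0.84 for Dnajc3, 0.77 for Jchain and 0.72 for Sel1l and Iglv1. With the genes singly, on all 16 early arrays, Socs2 had an r of 0.89 with Ints7 and 0.84 with Trim65. With Trim27 it was 0.26 and with Adck1 0.25. On the 15 early arrays without KO 24 h replicate 1, left out after its values were seen, the r was 0.80 to 0.90 with these 4 genes. Socs2 encodes an inhibitor of cytokine signalling, Jchain the joining chain of secreted antibody, Sel1l a component of protein disposal from the endoplasmic reticulum and Iglv1 a variable segment of the antibody light chain. Socs2 came closest to Ints7 (r = 0.97) and, like Ints7 and Trim65, was not low on KO 24 h replicate 1, at 0.77. Its late Het arrays stood at 2.02, 2.30, 2.92 and 3.13 and its late KO arrays at -1.44, -1.35 and -1.29, a difference of -3.96. Jchain shared the high late Het arrays (3.78 to 4.18) and differed in being far below the pool in KO at every time, already at -2.66, -10.27 and -3.46 at 0 h.

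Several features with no single symbol followed the 4 genes as closely as these followed each other. Of the 12287 other features on the array, 7 had an r above 0.9 with the mean profile of Ints7, Trim27, Trim65 and Adck1, of which 6 had no symbol and 1 had several. Of all 12292 features 11689 had no symbol, so nothing is read from that share. The r values include the 96 h arrays on which the genes were chosen. The 2 closest, 1 with several symbols and 1 with none, had an r of 0.99 each, above the 0.93 to 0.94 of the 4 genes with their own mean. These 2 features stood at 4.00 ± 0.26 and 4.44 ± 0.37 in Het at 96 h (SD, n = 4) and at 0.90 ± 0.08 and 1.24 ± 0.28 in KO (n = 3). On KO 24 h replicate 1, where the 4 genes part from their own mean, the 2 features were at 0.25 and 1.21, between the 2 pairs of genes. Each of the 5 genes rests on 1 feature, and whether these features read the transcripts they are named for was not tested.

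Other members of the same complexes and families were few among the 331 genes. No other subunit of Integrator or Mediator and no other gene of the UbiB family or of coenzyme Q synthesis was among them. Of the polymerase II list only Ell2 was measured, an elongation factor that plasma cells use for secreted antibody transcripts, and of the ubiquitin ligases Birc3, Rnf19a and Traf4. Averaged over 24 and 48 h, KO minus Het was -0.84 ± 0.77 for Ell2, -0.44 ± 0.41 for Birc3, -0.19 ± 0.36 for Rnf19a and 1.18 ± 0.70 for Traf4. None of the 4 passed at any time. At 96 h they stood at -1.74 ± 0.76, -0.21 ± 0.42, -0.15 ± 0.36 and -0.08 ± 0.71.

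Of 13 listed plasma-cell markers 7 were measured (Ell2, Iglv1, Jchain, Mzb1, Prdm1, Sdc1 and Xbp1), and their mean per array was 1.30 to 1.49 in Het at 96 h against -0.62 to -0.51 in KO at 96 h. At 48 h it was 0.30 to 0.45 in Het and -1.46 to -0.73 in KO. At 96 h 6 of the 7 (all but Sdc1) were lower in KO, 2 of them (Jchain and Iglv1) past the threshold, where 58.0% of all 331 genes were lower in KO and 2.72% passed. The median difference of the 7 was -1.36, while Jchain alone differed by -7.41 and so weighs on the means. At 0 h 3 of the 7 were lower in KO and 4 higher, with a median of 0.62, where 55.0% of all genes were lower. Mature B-cell markers at 96 h were at 1.66 to 2.26 in Het and 1.75 to 1.78 in KO. Of 14 T and NK markers 2 were measured (Cd3g and Gzma), at -2.10 to -0.39 in Het and -1.72 to -0.33 in KO at 96 h, and of 12 myeloid markers 3 (Cybb, Ncf1 and Tyrobp), at 0.73 to 1.62 and 1.76 to 1.96. The part of such cells in the values of the 5 genes was not tested, and in bulk RNA fewer cells of a type and less RNA per cell cannot be told apart.

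INTS7 was the only one of the 5 with a feature of a single symbol on the human array. In OCI-Ly7 its log2 ratio of IRF4 vector over empty vector was 0.48 at day 2, -0.66 and -1.16 on the day 3 arrays and -1.03 at day 5. Its mean was -0.59 ± 0.36 (SE, n = 4, 95% interval -1.46 to 0.28), with an adjusted p of 0.335 by limma, and 0.109% of 4604 human genes passed (5 genes). INTS7 was not called. IRF4 itself, averaged over its features, stood at 0.67 and -0.17 on the day 3 arrays, -0.29 at day 2 and -0.32 at day 5, so the vector did not show in the mean of the IRF4 features and the direction of the human ratios remains an assumption. Of 17 other measured subunits of Integrator and Mediator, 8 were below 0 and 9 above, and 0 passed, also at an unadjusted p under 0.05, with a median of 0.02 against -0.14 for all human genes. The 5 other Integrator subunits (INTS2, INTS3, INTS4, INTS5 and INTS8) had a median of 0.34.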

How the data were processed

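Values were used as the authors deposited them and taken as log2 ratios of the Cy5 and the Cy3 signal. Neither the base nor the direction of the ratio is stated, so base 2 and Cy5 over Cy3 are both assumptions. The size of the values does not settle the base, and with another base all folds would differ. The B-cell receptor gene Cd79b, higher than the pool on 23 of 23 mouse arrays, does not contradict the assumed direction. With the opposite direction all signs would turn. Background correction, normalization and the identity of the sequence-verified features of the design text were not given in those sources, and signals of single channels were not analysed here.

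Arrays were centred on the median of their 12292 mouse or 15246 human features. Gene values are means of features with 1 symbol in the platform annotation: 559 features for 331 mouse genes and 10169 for 4604 human genes. Group means by genotype and time were fitted with limma 3.58.1 in R 4.3.3 to the 16 mouse arrays at 0, 24 and 48 h, since the genes were chosen on the 96 h arrays. Differences at 96 h come from a fit of all 23. Tests were 2-sided, with Benjamini-Hochberg adjustment over all genes and a threshold of 0.05. The procedure was also run on simulated data with independent noise of equal spread on every array. The real arrays differ in spread, so that run does not show how the procedure behaves on them. The number of arrays limits the precision.

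The arrays were not paired by replicate number in the main setting. Of 10 pairs of Het and KO arrays with the same number, 5 had a correlation of deviations over 0.1, in a range from -0.17 to 0.51. The highest, 0.51 and 0.49, were those at 48 h. At 24 and 48 h the 2 Het arrays have mirrored deviations, so their values are not independent. Whether the numbers mark a pairing is therefore undecided. The 5 genes and all gene lists were chosen with earlier results of these data known. Named besides them are the 5 genes nearest to their mean profile, the measured genes of lists with up to 5 measured, and Jchain and Socs2. Scaling, array weights, database range, conflicting labels, a replicate block and single arrays were varied.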

Additional observations from a re-analysis of the deposited data

How the results depend on the processing

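In the 7 tested comparisons of the mouse arrays no gene of the 5 passed under any of the 28 or 29 alternatives each, except that 1 (Med9) passed for the early Het response without the lowest database range. Of 1010 values of single genes, 38 turned their direction, all of them below the threshold in both settings. At 0 h, KO minus Het came to -0.079 for Med9 with array weights, to 0.0295 for Trim27 and 0.055 for Trim65 without the lowest database range, and to 0.11, 0.0947 and 0.00773 for Trim27, Trim65 and Adck1 with arrays scaled to 1 median absolute deviation, a setting added after the data were seen. With the conflicting arrays taken as Het, Trim65 came to 0.13 at 24 h. The early Het response of Trim27, Trim65 and Adck1 was 0.42, 0.29 and 0.34 after quantile normalization, 0.34, 0.38 and 0.28 without the lowest range, and 0.59, 0.32 and 0.36 with the scaled arrays, and that of Trim27 ran from -0.90 to 0.19 when single arrays were left out. The early KO response of Med9 was 0.20 with array weights, 0.022 with the range as a factor, 0.36 without the lowest range and -0.26 to 0.22 without single arrays. The difference of the responses was -0.31 for Ints7 after quantile normalization, -0.064 with the range as a factor and -0.21 with the scaled arrays, 0.24 for Trim27 with array weights, 0.0449 for Trim65 with the replicate block and 0.23 with conflicting arrays taken as Het. Without single arrays it ran from -0.19 to 0.53 for Ints7 and from -0.64 to 0.23 for Trim65. The causes were not tested. The replicate block changed no call, and at 96 h it gave a median of -3.14 for the 5 genes, against -3.23. The estimation of array weights stopped before it converged in 2 fits. Over the alternatives the count of all genes passing ran from 0 to 17 at 0 h, 0 to 9 at 24 h, 0 to 1 at 48 h, 0 to 3 for their average, 1 to 89 for the early Het response (32 in the main setting), 0 to 38 in KO (1), 6 to 42 at 96 h (9) and 0 to 161 in the human arrays (5). The median r of Ints7, Trim27, Trim65 and Adck1 was 0.45 on the 16 early arrays, 0.12 for deviations from group means and 0.97 without the lowest range. Without KO 24 h replicate 1, left out after the data were seen, it was 0.97, with ranks (Spearman) 0.96, and on the 15 early arrays 0.94. For Med9 with the other 4 genes it was 0.36, 0.51 and 0.77 in the first 3 of these settings and 0.32 on the 15 early arrays. With arrays scaled to 1 median absolute deviation it was 0.68 for Med9 and 0.69 for the 4 genes.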

Other observations

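Over the 23 mouse arrays 8 pairs of named genes had a higher correlation than Trim27 and Adck1, led by Dnah7b, a dynein heavy chain gene, with Tubb5, a tubulin gene (r = 0.99). The others included Fen1 with Nasp and Cdk4 with Ncl, genes at work in dividing cells (r = 0.99 each). These values are descriptions of arrays that share a reference pool, and they include the 96 h arrays on which Trim27 and Adck1 were chosen.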
